A study of Mus musculus with 11 samples.

Results

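miR-126a is a microRNA (miRNA) of endothelial cells, followed here in macrophages sorted from mouse hearts before and after injury. Its members were the array rows named for its mature forms, mmu-miR-126a-3p and mmu-miR-126a-5p (written without the species prefix below), which are 2 of the 1247 mouse miRNAs read. Both were among the 369 miRNAs detected on at least 2 of the 11 arrays and tested. miR-126a-3p was detected on all 11 arrays and miR-126a-5p on 4.

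RNA was taken from GFP+ cardiac macrophages of Cx3cr1GFP/+ mice aged 2 to 3 months, a strain in which GFP is expressed from 1 allele of the fractalkine receptor gene Cx3cr1 in every group. The groups were Ly6Clow/CX3CR1high cells of hearts without surgery (day 0, 2 arrays), Ly6Chigh/CX3CR1low cells at day 3 (3 arrays), and Ly6Clow/CX3CR1high cells at day 7 (3 arrays) and day 30 (3 arrays) after cryoinjury, a freezing lesion that serves as a model of myocardial infarction. Ly6Chigh/CX3CR1low cells came from day 3 alone, so wherever day 3 is compared the stage and the population cannot be told apart. Replicates are independent biological ones per the labels, which give no number of animals per sample. Between day 30 replicates 2 and 3 the difference was under the scanner's error, with a median absolute log2 difference of 0.06 over 290 miRNAs and a squared difference 0.21 times that expected, against 3.03 to 39.0 times in the other 9 pairs of replicates. They were counted as 1 sample, which leaves 10 samples, and so few arrays limit how precise any value can be.

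A miRNA acts by pairing its seed, bases 2 to 8, with messenger RNAs, whose translation and stability it lowers. The miR-126 hairpin lies in an intron of Egfl7, a gene expressed by endothelial cells, and its 3p arm is among the most abundant endothelial miRNAs. There it represses Spred1 and Pik3r2, which restrain signalling downstream of vascular endothelial growth factor, and Vcam1, an adhesion molecule for leukocytes, while the 5p arm represses the Notch ligand Dlk1. miR-126 is also found in haematopoietic stem cells, megakaryocytes and platelets. In bulk RNA, a change in the number of cells that carry a miRNA and a change in its amount per cell cannot be told apart.

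The sequences below show the 3p arm, on which most values rest, with its seed in capitals, and the hairpin with the 3p arm in capitals. They come from RefSeq annotation of GRCm38.p6, in which 1 of the 2 members was matched.
miR-126a-3p: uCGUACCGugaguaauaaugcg
Mir126a hairpin: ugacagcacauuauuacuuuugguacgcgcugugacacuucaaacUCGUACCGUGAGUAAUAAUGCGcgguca
The hairpin spans chr2:26591357-26591429 on the plus strand, inside Egfl7 (chr2:26581083-26592682), and its 3p arm spans chr2:26591402-26591423. Of 1679 mature mouse miRNAs in the table, 0 others share the seed CGUACCG. The hairpin of Mir126b lies at chr2:26591363-26591420 on the minus strand, opposite that of Mir126a.

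Brightness was uneven between arrays. Over the 126 miRNAs that every array detected, the 75th percentile of the signal was 55.7 to 163 scanner units for day 0 cells, 805 to 1607 for day 3, 114 to 323 for day 7 and 1453 to 2304 for day 30, a 41.4-fold span. The number of miRNAs detected followed it, with 151 to 173, 301 to 338, 208 to 270 and 290 to 340 in the same order of days. Each array's signals were therefore divided by that percentile, and levels below are log2 of this scaled signal. A level of 0 equals the array's percentile.

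The total signal of miR-126a-3p was 10.6 and 23.2 scanner units on the day 0 arrays. On the day 3 arrays it was 382, 247 and 576, and on the day 7 arrays 110, 32.6 and 83.6. On the day 30 arrays it was 605, 361 and 451. The miRNA was thus well measured after injury, where it stood 23.4 to 276 times above the lowest detected signal of its array, and weaker at day 0, where it stood 6.41 and 14.5 times above it. The scanner's own error was 1.67 of the 10.6 units and 2.20 of the 23.2 units at day 0.

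Scaled to its array, miR-126a-3p had a log2 level of -3.95 and -1.26 on the day 0 arrays. It had -1.33, -1.71 and -1.48 on the day 3 arrays. It had -1.55, -1.80 and -1.63 on the day 7 arrays. The 3 day 30 arrays gave -1.93, -2.01 and -1.96, of which the last pair make 1 sample at -1.98. In all but 1 sample the miRNA lay in a narrow band, and the exception was day 0 replicate 1. On this scale the day 0 arrays lay on either side of all later arrays, one below and one above them. Day 3 and day 7 overlapped, and day 30 lay below both.

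**Figure D1:**
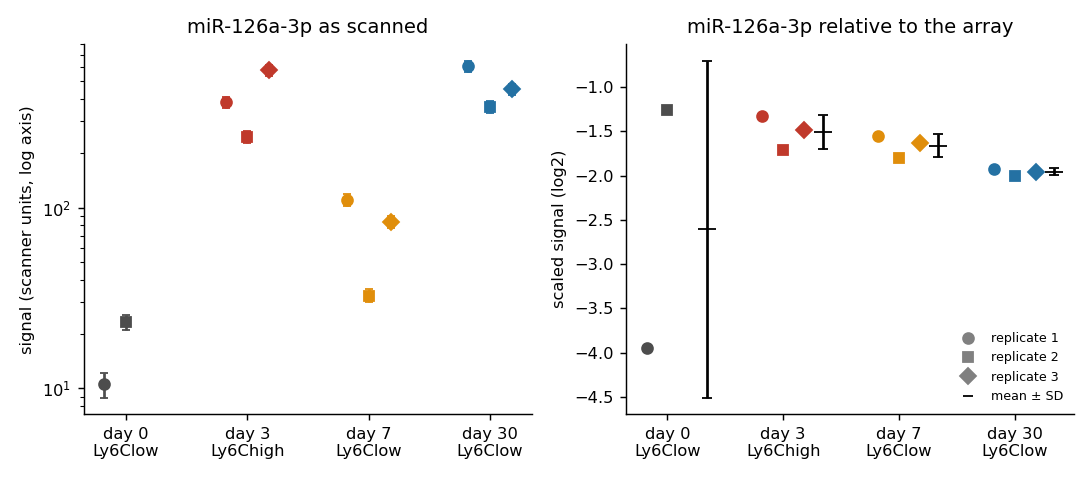
Signal of miR-126a-3p by day as scanned (left, scanner units on a log axis, bars for the scanner's error) and as log2 of the signal scaled to the array's 75th percentile (right, with the group mean ± SD), each point 1 array. Day 0 replicate 1 lies at -3.95, and the arrays other than it lie between -2.01 and -1.26.

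As a share of the summed signal of all miRNAs on the array, miR-126a-3p took 0.0404% and 0.126% at day 0. Day 3 cells had shares of 0.139% to 0.199%, day 7 cells 0.146% to 0.190% and day 30 cells 0.154% to 0.170%. On this second scale both day 0 arrays lay below every later array, and day 0 replicate 1 was the lowest.

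Group means of the scaled log2 level were -2.61 ± 1.90 at day 0 (SD, n = 2), -1.51 ± 0.19 at day 3 (n = 3), -1.66 ± 0.13 at day 7 (n = 3) and -1.96 ± 0.04 at day 30 (n = 2). From the highest mean to the lowest, the order was day 3, day 7, day 30 and day 0. No neighbours in that order differed by more than the error of the fit. Across the 4 groups miR-126a-3p did not pass the F test of limma (adjusted p = 0.368), a test that 78.9% of the 369 miRNAs passed.

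None of the 6 pairwise comparisons of miR-126a-3p passed an adjusted p of 0.05 in limma, and 0 had an unadjusted p under 0.05 (lowest 0.101). The log2 change at day 3 over day 0 was 1.10 (SE 0.62, 95% interval -0.24 to 2.44, limma adjusted p = 0.150), where 55.3% of miRNAs tested were called. At day 7 it was 0.94 over day 0 (SE 0.62, interval -0.40 to 2.29, limma adjusted p = 0.294), with 3.79% called. At day 30 it was 0.65 over day 0 (SE 0.68, interval -0.82 to 2.12, limma adjusted p = 0.421), with 56.4% called. These 3 comparisons share the day 0 samples, 1 of which lay above every later sample under this scaling and below every later array as a share of total signal.

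The comparisons among injured hearts gave changes closer to 0. Day 7 differed from day 3 by -0.16 (SE 0.56, interval -1.36 to 1.05, limma adjusted p = 0.810, 37.1% called). Day 30 differed from day 3 by -0.45 (SE 0.62, interval -1.80 to 0.89, limma adjusted p = 0.614), with 30.9% called. Day 30 differed from day 7 by -0.30 (SE 0.62, interval -1.64 to 1.05, limma adjusted p = 0.716), with 47.7% called. In both comparisons with day 30 the samples did not overlap, as was the case for 74.5% of miRNAs tested between day 30 and day 3 and 71.3% between day 30 and day 7. In this fit all 3 intervals include a level 2-fold lower on the later day. Their width rests on a variance shared by the 4 groups, and day 0 had the widest spread (SD 1.90, against 0.04 to 0.19 later). Without day 0 replicate 1, which leaves 1 day 0 sample, the 3 intervals were narrower. Those of day 7 against day 3 and day 30 against day 7 then excluded a 2-fold fall. That of day 30 against day 3 did not. Whether a 2-fold fall of miR-126a-3p is excluded thus depends on that array. The changes also depend on the scaling. Without it, day 3 against day 0 gave 4.59 (limma adjusted p = 0.000243) and day 30 against day 7 gave 2.88 (limma adjusted p = 0.00309), which has the opposite sign. Day 3 against day 0 passed under 5 other settings of the processing and did not under 8. Those it passed under include no scaling, the share of total signal and the authors' deposited table.

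**Figure D2:**
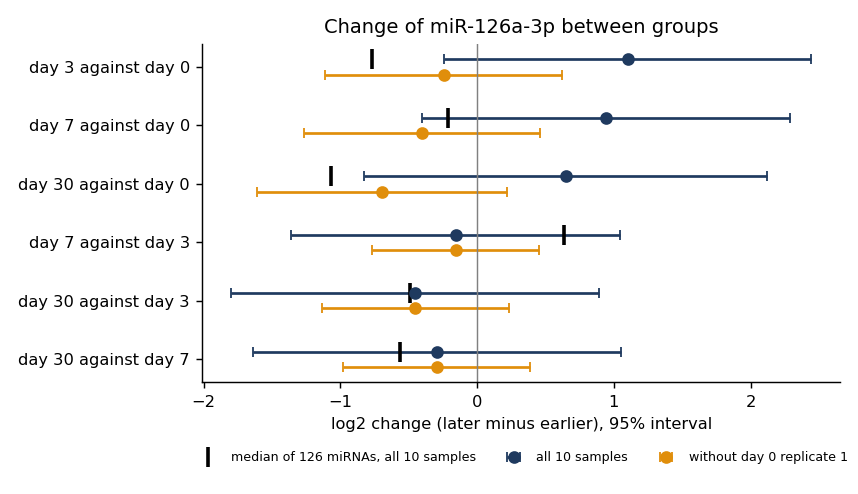
Log2 change of miR-126a-3p in the 6 comparisons with 95% intervals from limma, over all 10 samples and without day 0 replicate 1, with a tick at the median change of the 126 miRNAs. Every interval includes 0 in both fits, and under this scaling the 3 changes against day 0 lie above 0 with that array and below 0 without it.

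Under the 75th percentile scaling, day 0 replicate 1 decided the direction of each comparison with day 0. Without it, day 3 differed from day 0 by -0.24 (limma adjusted p = 0.593), day 7 by -0.40 (limma adjusted p = 0.414) and day 30 by -0.70 (limma adjusted p = 0.151). Day 0 then holds 1 sample, which is assumed to vary like the other groups. Under other scalings, tried without that array after seeing the data, the sign at days 3 and 7 did not turn. Per total signal the changes were 0.45, 0.36 and 0.38 at days 3, 7 and 30 (limma adjusted p 0.396 to 0.563), and without scaling they were 4.03 (limma adjusted p = 0.00195), 1.53 (0.235) and 4.41 (0.00152). The percentile over all miRNAs and the control features gave 1.28 to 3.74, quantile normalization gave 0.44 at day 3 (limma adjusted p = 0.0351), and the authors' deposited table gave 0.44, 0.27 and -0.14 with day 30 alone below day 0. Without day 0 replicate 2 instead, under the 75th percentile scaling, day 3 exceeded day 0 by 2.44 (limma adjusted p = 0.00112), day 7 by 2.29 (limma adjusted p = 0.00463) and day 30 by 1.99 (limma adjusted p = 0.00687). The 3 differences among days 3, 7 and 30 kept their values when either day 0 array was left out.

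The day 0 arrays differed by 2.69 in log2 level of miR-126a-3p, against a combined scanner error of 0.27. Among the 126 miRNAs detected on all arrays, 4 differed more between these arrays, namely miR-721, miR-1187, miR-466i-5p and miR-574-5p, which were named after their values were seen. The median difference over the 126 was 0.68, also in the direction of replicate 2. Among the other pairs of replicates, the largest difference of miR-126a-3p was -0.38, for day 3 replicate 2 minus replicate 1. The slide of each array was inferred from the scanner's name for that array and not from a label. By this the arrays lay on 2 slides, with day 0 replicate 1 on slide 1 and replicate 2 on slide 2. On slide 1 the change of miR-126a-3p against day 0 was 2.54 at day 3, 2.36 at day 7 and 2.02 at day 30. On slide 2 it was -0.45, -0.54 and -0.72 in the same order of days. Each slide holds 1 day 0 array, so slide and replicate cannot be told apart at day 0. Among the later days both slides gave the same direction, with day 7 against day 3 at -0.19 and -0.10, day 30 against day 3 at -0.52 and -0.28, and day 30 against day 7 at -0.34 and -0.18.

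Read against the other miRNAs of the arrays, the change of miR-126a-3p against day 0 stood in the upper part at days 3, 7 and 30 with both day 0 arrays and nearer the middle without replicate 1. The 126 miRNAs that every array detected had a median change of -0.77, -0.21 and -1.06 in the comparisons of days 3, 7 and 30 with day 0. Of the 126, 23, 5 and 27 had a larger change than miR-126a-3p in these comparisons. Without day 0 replicate 1 these counts were 44, 53 and 52, with medians of -1.19, -0.59 and -1.33. The distance of miR-126a-3p above the median was 1.87 at day 3, 1.16 at day 7 and 1.71 at day 30, and a scaling by 1 factor per array leaves it unchanged. Among later days it was -0.79 (day 7 against day 3), 0.04 (day 30 against day 3) and 0.27 (day 30 against day 7), with 83, 62 and 54 miRNAs above it.

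The level of miR-126a-3p spanned 2.69 log2 units over the 10 samples, and 46 of the 126 miRNAs spanned less, with a median span of 3.11. Over the 9 samples without day 0 replicate 1, a set chosen after seeing the data, it spanned 0.72, and 1 of the 126, miR-24-3p at 0.59, spanned less, with a median of 3.08. The sample left out was the lowest of miR-126a-3p, whereas the other miRNAs mostly kept their own most extreme sample. Ranks over the 9 samples are thus set in part by that choice and do not compare like with like. This narrow span depended on the scaling. Over the same 9 samples it was 0.66 per total signal and 0.68 after quantile normalization, with 0 miRNAs spanning less. It was 3.18 when the 75th percentile was taken over all miRNAs, 3.82 when scaled to the array's own control features and 4.70 without scaling, with 56, 62 and 65 miRNAs spanning less. Leaving out any other sample in place of day 0 replicate 1 gave spans of 2.62 to 2.69.

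**Figure D3:**
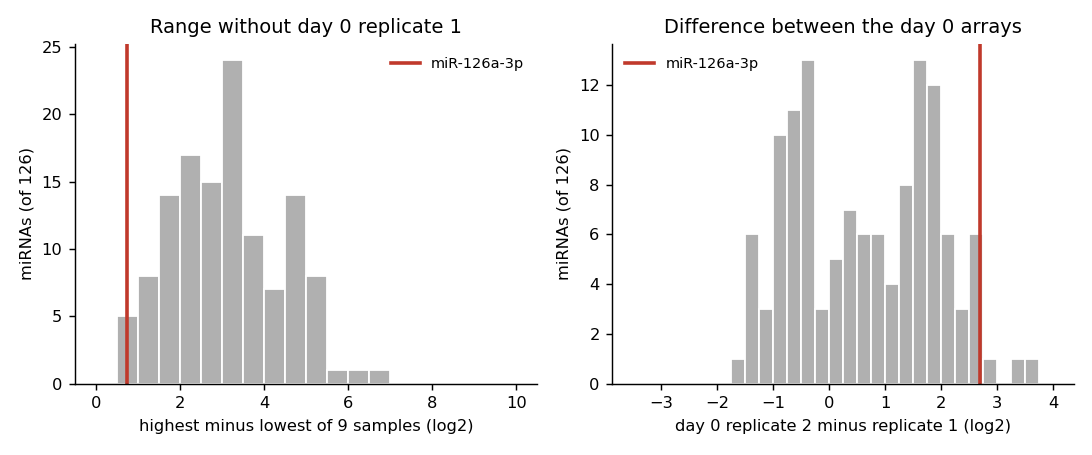
Number of miRNAs, of the 126 detected on all arrays, by their span over the 9 samples without day 0 replicate 1 (left) and by day 0 replicate 2 minus replicate 1 (right), in log2 units. miR-126a-3p, the red line, lies near the lower end of the first, at 0.72, and near the upper end of the second, at 2.69. The sample left out on the left is the lowest of miR-126a-3p, which sets its place there in part.

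miR-126a-5p, the other arm of the hairpin, lay at the limit of detection. It was detected on day 3 replicates 1 and 3, at 4.48 and 5.48 scanner units, and on day 30 replicates 1 and 3, at 7.43 and 4.09. Its signal was 1.48 and 1.40 units on the day 0 arrays, 1.84 on day 3 replicate 2, 1.19, 1.23 and 1.43 on the day 7 arrays and 1.99 on day 30 replicate 2, on all of which it was not detected. The lowest detected signals on these 7 arrays were 1.36 to 2.39 units. All 4 arrays that detected the arm were bright ones, and 2 bright arrays did not detect it.

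After scaling, the background of a dim array lies above that of a bright one, so the fit placed miR-126a-5p lower at day 3 (log2 change -2.11, limma adjusted p = 0.00885) and day 30 (-2.36, limma adjusted p = 0.00762) than at day 0, where no array detected it. Lower calls made up 39% of miRNAs tested at day 3 and 47.4% at day 30, and those of miR-126a-5p were not read as falls. The F test across groups, which rests on the same values, gave an adjusted p of 0.0130. Between day 30 and day 3, where some arrays detected it, the change was -0.25 (SE 0.56, limma adjusted p = 0.769). In that fit day 3 replicate 2 and both arrays of the merged day 30 sample lay at the floor set for low signals. This change thus rests in part on floor values. Bounds against the groups without detection came to less than 1-fold in each of the 4 comparisons that allow one, so no fold is given.

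**Figure D4:**
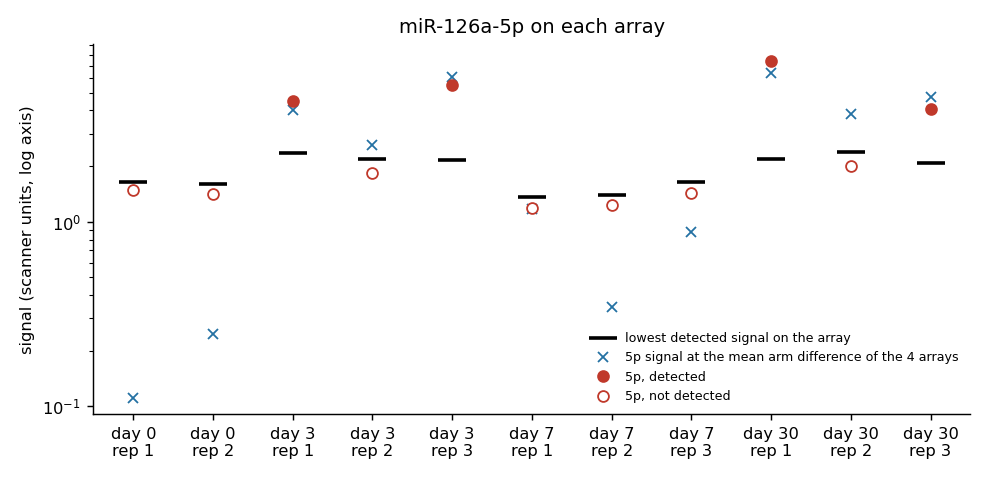
Signal of miR-126a-5p on each array (circles, filled where detected, scanner units on a log axis), with a black bar at the array's lowest detected signal and a cross at the signal that the mean arm difference would give. Detected values, on 2 day 3 and 2 day 30 arrays, lie between 4.09 and 7.43 units.

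Both arms come from 1 hairpin and are read on the same array, so the scaling cancels in their difference unless a value is raised to the floor. Its size depends on the probes and has no meaning as a ratio of amounts, and only its variation is read here. On the 4 arrays that detected both, log2 of the 3p signal minus log2 of the 5p signal was 6.41 and 6.71 at day 3 and 6.35 and 6.79 at day 30. These values varied little, and the range at day 3 lay within that at day 30. At their mean, the 5p arm would have given 0.112 to 1.16 scanner units on the 2 day 0 and 3 day 7 arrays, below the lowest detected signal of each. On the 2 other arrays without detection, day 3 replicate 2 and day 30 replicate 2, it would have given 2.60 and 3.81 units, above it. The exact permutation test of the difference between the 4 groups over 10 samples, 2-sided, gave p = 0.0232. On day 3 replicate 2 and day 30 replicates 2 and 3, the 5p value in that test was raised to the floor, so the scaling does not cancel there. Without a floor the exact permutation p was 0.0221. That test uses values at background. With the floor set at the highest lowest detected signal of any array, every 5p value lay at the floor. The exact permutation p of 0.541 under that setting thus reflects the 3p arm alone and does not test the arm difference. Under the main floor, the exact permutation p for the arm difference was 0.0544 without day 0 replicate 1.

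Set against leukocyte miRNAs of the same array, miR-126a-3p lay higher in day 7 cells than in those of days 3 and 30. miR-142a-3p is made in all blood lineages and miR-223-3p is abundant in myeloid cells, and both were detected on all 11 arrays. The log2 level of miR-126a-3p minus the mean of these 2 was -4.31 and -0.54 at day 0 and -3.20, -3.55 and -3.72 at day 3. It was -1.42, -0.75 and -1.15 at day 7 and -3.90 and -3.60 at day 30. Day 7 lay above both day 3 and day 30 without overlap, and the day 0 samples lay on either side of all other groups. The group means were -2.42 ± 2.66 at day 0, -3.49 ± 0.27 at day 3, -1.10 ± 0.34 at day 7 and -3.75 ± 0.21 at day 30 (SD, n = 2, 3, 3 and 2). Over the 4 groups, an exact permutation test of 25200 assignments gave p = 0.128. Without day 0 replicate 1 it gave 0.00397, and without day 0 replicate 2 it gave 0.00357. This difference shows unequal change of the miRNAs and not which of them changed. The day 7 arrays were also dimmer (75th percentile 114 to 323 scanner units) than those of day 3 (805 to 1607) and day 30 (1453 to 2304). Among these days, day and brightness cannot be told apart in this difference, and the part of brightness was not tested.

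The leukocyte miRNAs themselves differed between groups. miR-142a-3p was higher at day 3 than at day 0 by 2.82 (limma adjusted p = 0.00237), lower at day 7 than at day 3 (log2 change -2.74, limma adjusted p = 0.00201) and higher at day 30 than at day 7 by 3.55 (limma adjusted p = 0.000482). miR-223-3p differed by 1.51 (limma adjusted p = 0.0112), -2.35 (limma adjusted p = 0.00124) and 1.15 (limma adjusted p = 0.0418) in the same comparisons. The first of these calls was lost without day 0 replicate 2 (limma adjusted p = 0.0646) and the last without any 1 of 8 samples, all those of days 3, 7 and 30 (limma adjusted p 0.0514 to 0.226). The summed scaled signal of the 4 leukocyte miRNAs on the array, over those detected, was 3.90 to 7.16 in day 0 cells, 14.2 to 17.9 in day 3 cells, 2.38 to 3.58 in day 7 cells and 7.94 to 9.33 in day 30 cells. Most of each sum came from miR-223-3p. The sums are relative to the array's percentile and do not measure how pure the sort was. miR-223-5p was not detected on any array.

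The other endothelial miRNAs did not all follow 1 course. Over the 10 samples, miR-10a-5p was among the 5 miRNAs whose course was most like that of miR-126a-3p, as given below. The list held 10 entries, of which 8 were on the array and 6 tested. miR-218-5p and miR-196b-5p, both named for roles in endothelial cells or their precursors, were not detected on any array. Summed over the members detected on each array, of which miR-126a-3p is one, the scaled signal was 0.289 to 0.696 in day 0 cells, 0.807 to 0.861 in day 3 cells, 0.639 to 0.714 in day 7 cells and 0.832 to 0.889 in day 30 cells. With undetected members, which carry background, the sums were 0.334 to 0.822 at day 0 and 0.810 to 0.865 at day 3, which overlap. At days 7 and 30 they were 0.674 to 0.736 and 0.834 to 0.894. The sequences below are those of the other tested members, with the seed in capitals, shown because miR-10a-5p and miR-10b-5p share 1 seed and the pair from the X chromosome have different ones.
miR-10a-5p: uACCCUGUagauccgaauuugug
miR-10b-5p: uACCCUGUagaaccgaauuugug
miR-322-5p: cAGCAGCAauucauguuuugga
miR-503-5p: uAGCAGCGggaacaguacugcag
They lie at chr11:96317186-96317208 on the plus strand for miR-10a-5p, chr2:74726074-74726096 on the plus strand for miR-10b-5p, chrX:53054306-53054327 on the minus strand for miR-322-5p and chrX:53054027-53054049 on the minus strand for miR-503-5p. The miR-10 pair sit in the Hox gene clusters, and miR-322 with miR-503 are transcribed together and restrain cell cycle genes.

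Of the 6 tested endothelial miRNAs, 1 rose at day 3, at day 7 and at day 30 against day 0, and each time it was miR-10a-5p, beside 16.3%, 3.25% and 8.94% of miRNAs tested. Its log2 level was -4.60 and -4.03 on the day 0 arrays, -2.15 to -1.81 in day 3 cells, -2.34 to -1.89 in day 7 cells and -2.66 to -2.57 in day 30 cells. Under the 75th percentile scaling miR-126a-3p was low on 1 day 0 array alone. As a share of total signal, miR-126a-3p was below every later array on both (0.0404% and 0.126%). Under that percentile scaling miR-10a-5p was low on both day 0 arrays. No later sample of miR-10a-5p overlapped them, as for 65.6%, 19.5% and 78.3% of miRNAs tested at days 3, 7 and 30. It rose by 2.35 at day 3 (limma adjusted p = 0.00115), by 2.26 at day 7 (limma adjusted p = 0.0227) and by 1.70 at day 30 (limma adjusted p = 0.00770). The call at day 3 held under 5 other scalings and without any 1 sample. The call at day 7 was lost without 1 of day 3 replicate 2, day 3 replicate 3, day 7 replicate 3, day 30 replicate 1 or the merged day 30 sample (limma adjusted p 0.0553 to 0.0706), and that at day 30 without either day 30 sample (limma adjusted p 0.0584 and 0.0570). The difference between miR-10a-5p and miR-126a-3p in these changes was not tested.

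miR-322-5p had log2 levels of -2.45 to -2.20 in day 0 cells, -2.59 to -2.12 in day 3 cells, -3.42 to -3.20 in day 7 cells and -1.40 to -1.15 in day 30 cells. It rose by 2.01 at day 30 against day 7 (limma adjusted p = 0.00161), under each of 5 other scalings and without each sample, beside 13.6% of miRNAs called higher. miR-503-5p was detected on all day 3 and day 30 arrays and on no day 0 or day 7 array. At day 7 it was lower than at day 3, by at least 3.02-fold (limma adjusted p = 0.0155, beside 16% called lower), and at day 30 it was at least 2.53-fold higher than at day 7 (limma adjusted p = 0.0390). The first of these calls was lost without replicate 2 or 3 of day 3 or replicate 3 of day 7 (limma adjusted p up to 0.0693). The second was lost without day 3 replicate 2 or 3, day 7 replicate 1 or 3, or either day 30 sample (limma adjusted p up to 0.167). miR-10b-5p, detected on 8 arrays, passed in no comparison. The median change of the 6 was 0.20 at day 3, -0.61 at day 7 and 0.43 at day 30 against day 0, beside -0.79, -0.51 and -1.37 over all 369 tested. The 6 include miR-126a-3p itself. miR-126a-5p, miR-10b-5p and miR-503-5p were undetected on both day 0 arrays, so these medians rest in part on background.

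Other cell types than endothelium could also be present in a sorted sample. Of 6 cardiomyocyte miRNAs, the muscle miRNAs miR-133a-3p and miR-133b-3p were detected on all arrays, while miR-208a-3p, miR-208b-3p and miR-499-5p were detected on none. Summed over the members detected on each array, since undetected ones carry the background of dim arrays, the scaled signal was 0.101 to 0.164 in day 0 cells, 0.0158 to 0.0381 in day 3 cells, 0.0698 to 0.12 in day 7 cells and 0.0526 to 0.0773 in day 30 cells. Of the 5 fibroblast and smooth muscle miRNAs, 1 was detected on one day 0 array, at 0.0312, and 0 on the other. The sums on later arrays were 0.0820 to 0.112 in day 3 cells, 0.165 to 0.412 in day 7 cells and 0.195 to 0.212 in day 30 cells. Leaving out undetected members lowers the sums of dim arrays. With those members, the fibroblast and smooth muscle sums were 0.0674 to 0.126 at day 0 and 0.0866 to 0.113 at day 3, which overlap. At days 7 and 30 they were 0.176 to 0.433 and 0.196 to 0.213. miR-133a-3p was lower at day 3 than at day 0 (log2 change -2.81, limma adjusted p = 0.000672) and at day 30 than at day 0 (-2.06, limma adjusted p = 0.00536). The sign of both turned without scaling (0.69 and 2.27) and with the array's control features (0.18 and 1.86). miR-1a-3p, the third cardiomyocyte miRNA tested, was undetected on both day 0 arrays and detected on all 3 day 30 arrays. It was also undetected on day 3 replicate 2, where it lay at the floor, and on day 7 replicates 2 and 3. Its changes against days 3 and 7 thus rest in part on floor or background values. In the fit miR-1a-3p was higher at day 30 than at day 3 by 2.14 (limma adjusted p = 0.0343, beside 9.76% called higher) and than at day 7 by 1.88 (limma adjusted p = 0.0390). The first of these calls was lost without day 3 replicate 2 or either day 30 sample (limma adjusted p up to 0.252), and the second without day 3 replicate 3, day 7 replicate 2 or 3, or either day 30 sample (up to 0.276). The part of these cell types in the values of miR-126a-3p was not tested. The erythroid miRNA miR-451a, which platelets share with red cells, was detected on 7 arrays, with all 3 at day 3 and all 3 at day 30 among them. It was undetected at day 0 and detected on 1 day 7 array.

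**Figure D5:**
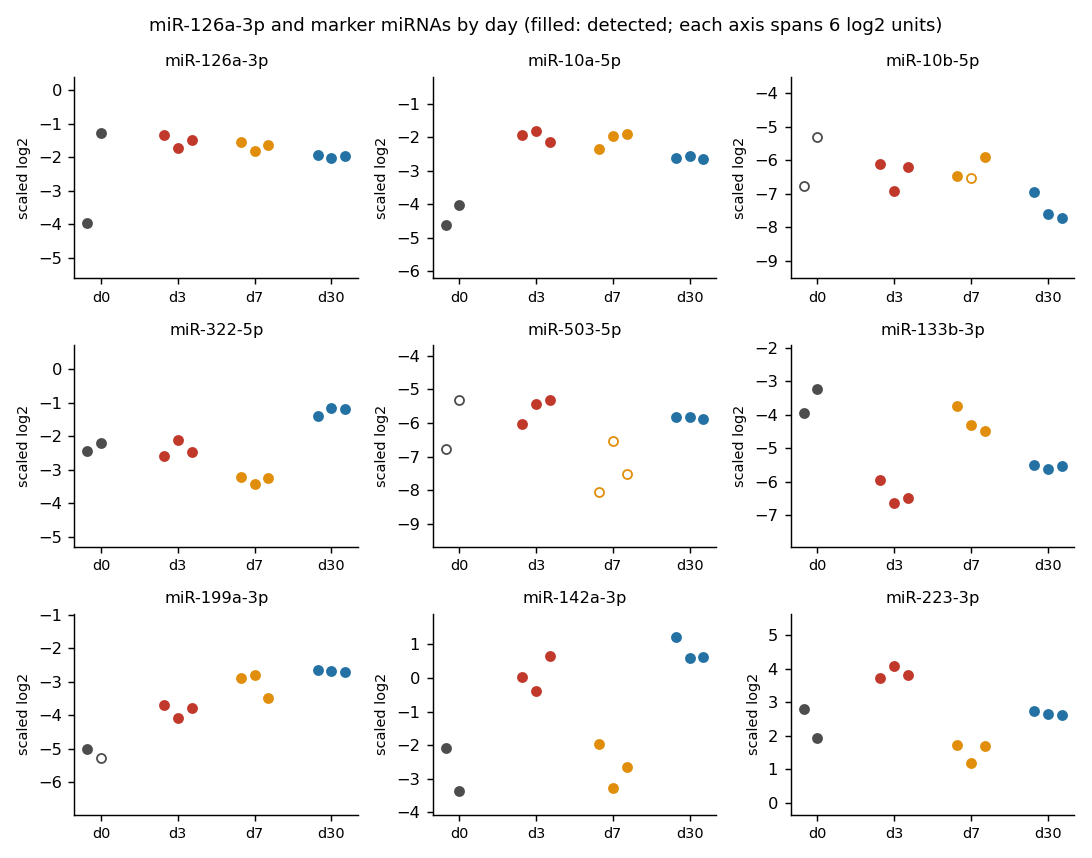
Scaled log2 level on each array (points, filled where detected) of miR-126a-3p and of marker miRNAs of endothelium, cardiomyocytes, fibroblasts and leukocytes, by day, with every axis spanning 6 log2 units. miR-126a-3p stays within -2.01 and -1.26 outside day 0 replicate 1, while miR-142a-3p and miR-223-3p are lower at day 7 than at day 3.

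The miRNAs whose course was most like that of miR-126a-3p were found by the root mean square difference of centred log2 levels among the 125 other miRNAs detected on all arrays. Over the 10 samples they were miR-1894-3p at 0.62, miR-24-3p at 0.72, miR-10a-5p at 0.72, let-7i-5p at 0.72 and miR-3082-5p at 0.74. Over the 9 samples without day 0 replicate 1, a set chosen after seeing the data, they were miR-652-3p at 0.30, let-7a-5p at 0.31, let-7d-5p at 0.34, miR-1894-3p at 0.38 and miR-532-5p at 0.38. Of the first 5, miR-1894-3p was also among the second, so that day 0 replicate 1 largely set the order. The values nearest to miR-126a-5p were those of miR-5107-5p at 0.44, miR-3072-5p at 0.52 and let-7b-5p at 0.53. That arm was undetected on 7 arrays, where its values are background, so this is no likeness to a measured course of it.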

How the data were processed

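Per the labels' protocols, Cy3 was attached to the miRNA in 100 ng of RNA from each sample, read on 1-colour Agilent arrays. Agilent Feature Extraction produced the signals, per the submitters' processing notes (version not given). Per the file headers, each deposited scanner file holds a total signal per miRNA (intensity in scanner units), its error and a detection flag. The authors' deposited table holds log2 values for 317 miRNAs, nearly the same set of sorted values in each column, and was used as an alternative. The files name no genome build, and positions are those of the RefSeq table for GRCm38.p6.

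Each signal was divided by its array's 75th percentile, taken over the 126 miRNAs that every array detected, and raised to a floor of 0.00271, the median over arrays of the lowest detected scaled signal (log2 of -8.53). Day 30 replicates 2 and 3 were averaged in log2. The 369 miRNAs detected on at least 2 arrays, of 1247 (852 never detected), entered 1 linear model of 4 groups in limma 3.58.1 under R 4.3.3, with 6 residual degrees of freedom and Benjamini-Hochberg adjustment within each of 6 comparisons at 0.05. The fit was tested on simulated data. Permutation tests and figures used Python 3.11.15 with numpy 2.4.6, pandas 2.3.3 and matplotlib 3.10.9.

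The bound for a miRNA undetected in 1 group sets the mean of the other group over the higher of each array's lowest detected signal and the miRNA's own, averaged in log2. A lower call of a miRNA that no array of its comparison group detected was not read as a fall. The text names the members, the tested or undetected members of the endothelial list, up to 3 of highest signal per other list, and the 5 and 3 most alike miRNAs. The 2 members, the lists, written from general knowledge, and the tests were chosen with earlier results of these data known.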

Additional observations from a re-analysis of the deposited data

How the results depend on the processing

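The number of arrays and the dim day 0 arrays set the precision. For miR-126a-3p, scalings that keep brightness differences gave calls. Without scaling, the log2 change was 4.59 at day 3 and 4.98 at day 30 against day 0, -2.50 at day 7 and 0.38 at day 30 against day 3, and 2.88 between day 30 and day 7 (F test adjusted p 0.000387). With the 75th percentile over all miRNAs it was 3.64, 2.27 and 3.59 at days 3, 7 and 30 against day 0 and 1.33 at day 30 against day 7 (F test 0.00413). With the array's control features it was 4.08, 2.12 and 4.57 against day 0, -1.96 and 0.49 at days 7 and 30 against day 3 and 2.45 at day 30 against day 7 (F test 0.000419). Per total signal it was 1.27 at day 3 against day 0 (limma adjusted p 0.0312) and 0.014 at day 30 against day 7. The authors' deposited table gave 1.50 at day 3 against day 0 (limma adjusted p 0.0297). With brightness as a covariate, day 30 gave 0.027 against day 3 and 1.52 against day 7. For miR-126a-5p, near background, the direction turned without scaling (day 3 against day 0 0.84, day 30 against day 0 1.16, day 7 against day 3 -0.84, day 30 against day 3 0.33, day 30 against day 7 1.16, F test 0.118), using the percentile over all miRNAs (0.24, 0.20 and -0.24, with 0.20 at day 30 against day 7 and F test 0.565), with control features (0.66, 1.13, -0.73, 0.48 and 1.20, F test 0.0539) and with brightness as a covariate (0.38, 0.72, -0.88, 0.35 and 1.23, F test 0.262). Quantile normalization gave 0.15 at day 30 against days 0, 3 and 7 (F test 0.516), the authors' table -1.29 at day 30 against day 0 and 0.46 against day 3, and no filter -1.33 at day 7 against day 0 (limma adjusted p 0.0294). The arm difference had an exact p of 0.541 with the highest floor, where every 5p value lay at the floor and only the 3p arm varied. The cause of these differences was not tested.

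Leaving out each replicate in turn gave, for miR-126a-3p, ranges against day 0 of -0.24 to 2.44 (day 3), -0.40 to 2.29 (day 7) and -0.70 to 1.99 (day 30), and an F test adjusted p of 0.00129 to 0.497. The 3 comparisons of later days ranged from -0.26 to -0.07, -0.55 to -0.36 and -0.37 to -0.24 and passed in none. For miR-126a-5p the ranges were -2.85 to -1.37, -2.06 to -0.59 and -3.09 to -1.62 against day 0, 0.36 to 1.14, -0.43 to -0.04 and -1.38 to -0.61 among later days, and 0.00282 to 0.0612 for the F test. Exact p ranged from 0.00238 to 0.0544 for the arm difference and from 0.00357 to 0.272 for the difference from leukocyte miRNAs. The replicate numbers were not taken to pair the samples, since 5 of 15 correlations of same-numbered deviations were not above 0.1 (range -0.26 to 0.59), though all 6 for replicate 2, all on slide 2, were (0.23 to 0.59). The replicate block on 11 separate arrays gave 1.09 for miR-126a-3p at day 3 against day 0 (limma adjusted p 0.146) and changed no call of either member, and the slide as a block changed none. No value could be had for miR-126a-5p where all its values lay at the floor, in all 6 comparisons and the F test with the highest floor, in 3 comparisons with quantile normalization and in 1 each without scaling and with the percentile over all miRNAs, or among miRNAs detected on all 11 arrays. The spans, likeness and other scalings without 1 sample and the repeats of the list calls were chosen after seeing the data.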
